A study of Drosophila melanogaster with 6 samples.

Results

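Of 40 named genes for neuronal function, 2 had a reproducible peak of either factor within 1000 bp, *elav* and *Gad1* (5%, against 7.67% of all genes). A peak in any of 6 lists lay near 6 (15%, against 12.9% of all genes), and 34 had none. Of the 6, *VAChT* and *ChAT* overlap and count through the same peaks. These shares take no account of gene length. For the 21 of the 40 that are 20 kb or longer, 0 had a reproducible peak, against 27.0% of all genes of that length. In any list 2 of the 21 had one (9.52%), against 38.6%. The genes were given by name as transmitter, synapse and ion channel genes: 2 for neuronal RNA-binding proteins, 12 for the synthesis and transport of transmitters, 7 for vesicle release and the active zone, 9 for voltage-gated channels and 10 for transmitter receptors. They are 40 of the 18164 genes annotated on 6 chromosome arms, and all 40 are protein coding. All were found in the annotation, 39 by symbol and *Trh*, the neuronal tryptophan hydroxylase, through its synonym (annotated as Trhn).

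The data are DamID-seq peaks from *Drosophila* optic lobes, dissected from climbing larvae of the third instar. The methylase Dam, free or fused to Ey or to Su(H), was driven by *SoxN*-Gal4, which the study used as a driver for medulla neuroblasts (NBs), and each of these 3 groups had 2 libraries. The genotypes were UAS-Dcr2; tubG80ts/CyO; *SoxN*-Gal4 over UAS-Dam, UAS-Ey-Dam or UAS-Su(H)-Dam, so all groups carried Dcr2 and the temperature-sensitive Gal80. Crosses at 25 °C laid eggs for 8 hours, the progeny were held at 18 °C for 3 days and shifted to 29 °C for 72 hours, and optic lobes of about 100 brains were pooled for a library.

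Ey is the fly homolog of Pax6 and one of the temporal transcription factors that medulla NBs express in sequence. Su(H) is the DNA-binding protein through which Notch signaling reaches its targets. The 40 genes act later in the lineage: Elav-family proteins shape neuronal RNAs, enzymes and vesicular transporters fix a neuron's transmitter, SNARE and active zone proteins release it, and channels and receptors carry the electrical response. In DamID a fusion protein methylates GATC sites near where it sits, so a peak reports methylation in the driver's cells over the induction and not expression of the gene. A missing or low peak cannot tell few methylated cells from little methylation per cell.

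Each replicate of a fusion has a list of peaks called at a false discovery rate (FDR) under 0.01, with a score based on log2 ratios over Dam alone. The Ey-Dam lists hold 1470 and 1509 peaks and the Su(H)-Dam lists 1455 and 1461. Peaks are called reproducible here when they stand in the list that passed the irreproducible discovery rate (IDR) threshold of 0.05, and there were 984 for Ey and 972 for Su(H). The scores of the factors were normalized apart, so a score is placed by the percentage of its own list that scored lower. Both factors were set against Dam-only libraries, which they may share, and their values are therefore given side by side.

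The peaks near the 40 genes fell into 8 separate places, and 5 windows from 4 of them are shown because the results turn on them. They are read on the forward strand of Release 6 of the genome (dm6), with the GATC sites that Dam methylates and any Su(H) motif in capitals. The Su(H) motif is any of CGTGAGAA, CGTGGGAA, TGTGAGAA and TGTGGGAA, searched on both strands. The first window, chr3L:4081545-4081644, lies in an intron of *Gad1* inside the reproducible Ey peak and holds the only Su(H) motif found at any of the 8 places, TGTGAGAA. Among the replicate lists only the Ey-Dam replicate 1 peak covers this window. The second, chr3L:4082045-4082284, is the middle of the *Gad1* stretch in which reproducible Ey and Su(H) peaks coincide. The third, chrX:12927472-12927711, is the middle of the *fne* intron interval present in all 4 replicate lists. The fourth, chrX:523227-523426, is the 200 bases just upstream of the outer start site of *elav*, under the reproducible Ey peak. The last, chr3L:4433392-4433631, is the middle of the Su(H) peak in *nAChRbeta1* and runs from one coding exon through an intron into the next. All but the first were added after the peaks were seen.
Gad1 intron with the Su(H) motif: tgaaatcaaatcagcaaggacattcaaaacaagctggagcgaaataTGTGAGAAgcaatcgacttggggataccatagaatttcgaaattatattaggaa
Gad1 intron under both factors: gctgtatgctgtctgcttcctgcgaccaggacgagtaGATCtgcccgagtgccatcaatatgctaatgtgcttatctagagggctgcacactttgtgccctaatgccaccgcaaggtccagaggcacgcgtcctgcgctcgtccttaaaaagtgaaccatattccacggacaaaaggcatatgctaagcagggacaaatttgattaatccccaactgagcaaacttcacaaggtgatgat
fne intron: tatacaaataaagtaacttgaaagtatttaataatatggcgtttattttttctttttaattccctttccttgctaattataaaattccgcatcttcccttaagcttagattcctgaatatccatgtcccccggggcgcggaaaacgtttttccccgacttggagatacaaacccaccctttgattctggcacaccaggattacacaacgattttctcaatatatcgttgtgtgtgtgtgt
elav upstream: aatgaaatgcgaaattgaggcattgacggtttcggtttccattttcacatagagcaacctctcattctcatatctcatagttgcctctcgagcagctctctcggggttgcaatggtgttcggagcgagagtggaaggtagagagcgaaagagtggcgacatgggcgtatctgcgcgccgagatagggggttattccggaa
nAChRbeta1: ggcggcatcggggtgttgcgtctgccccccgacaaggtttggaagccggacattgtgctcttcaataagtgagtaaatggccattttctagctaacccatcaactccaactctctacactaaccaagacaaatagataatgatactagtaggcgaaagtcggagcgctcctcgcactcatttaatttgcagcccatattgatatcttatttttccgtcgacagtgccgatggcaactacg

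The windows of *fne*, *elav* and *nAChRbeta1* hold no GATC site, so each lies within 1 fragment of the assay, and the shared *Gad1* window holds 1. Within the central 1000 bp of the 8 places, 1 held a Su(H) motif (12.5%). The same search found it in 12.7% of the reproducible Ey peaks, 24.9% of the reproducible Su(H) peaks and 9.93% of 133586 tiles of 1000 bp along the arms. The longer Ey consensus of 17 letters was found at 0 of the 8 places, in 0.813% of the reproducible Ey peaks and in 0.535% of the tiles. These are matches of letters only.

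A reproducible Ey peak lay within 1000 bp of 2 of the 40 genes (5%), *elav* and *Gad1*, against 5.54% of all genes. A reproducible Su(H) peak lay near 1 of them (2.5%), *Gad1*, against 5.46% of all genes. *Gad1* was the 1 gene with reproducible peaks of both factors, which 3.33% of all genes had. *elav* had Ey without Su(H), as 2.21% of all genes did, and 0 of the 40 had Su(H) without Ey, against 2.14%. With either factor the count was 2 of 40 (5%) against 7.67% of all genes. At this level the shares of the 40 genes were near those of all genes for Ey and below them for Su(H), with counts of 2 and 1.

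The comparison with all genes changes with gene length. The 40 genes had a median length of 21246 bp, from 2772 to 225026 bp, against a median of 1656 bp for all genes. Among all genes a reproducible peak of either factor was found for 5.41% of those under 5 kb, 12.7% of those of 5 to 20 kb, 24.7% of those of 20 to 50 kb and 32.3% of those of 50 kb and over. Among the 40, the counts in these classes were 0 of 5, 2 of 14, 0 of 11 and 0 of 10. For the 21 that are 20 kb or longer the count was thus 0, against 27.0% of the 1039 genes of that length. In any of the 6 lists, 2 of the 21 had a peak (*fne* and *ChAT*, 9.52%) against 38.6% of genes of that length. Of the 19 under 20 kb, 4 had one (*elav*, *Gad1*, *VAChT* and *nAChRbeta1*, 21.1%) against 11.3% of all genes under 20 kb. *VAChT* counts there through the same peaks as *ChAT*. In any list the share was thus below that of all genes for the long genes and above it for the shorter ones. The shorter genes are not matched for length. Of the 19, 14 are 5 to 20 kb long, while 14559 of the 17125 genes under 20 kb are under 5 kb. Within 5 to 20 kb the shares with a reproducible peak were 14.3% of the 14 and 12.7% of all genes.

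**Figure D1:**
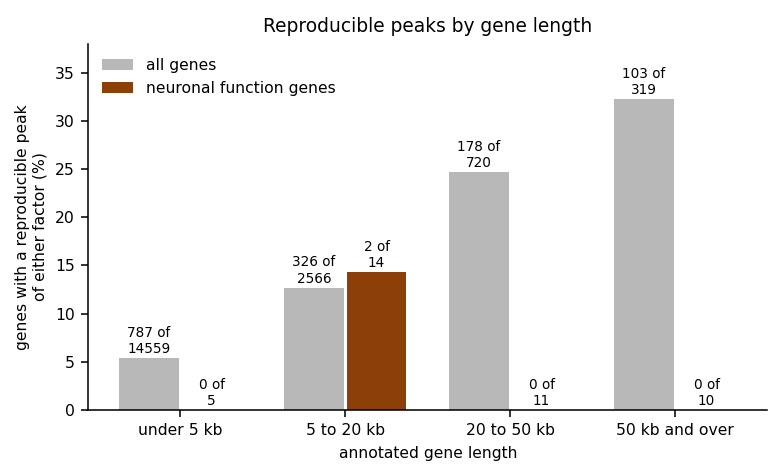
Percentage of genes with a reproducible Ey or Su(H) peak within 1000 bp, by annotated gene length, for all genes (grey bars) and for the 40 neuronal function genes (brown bars), with the counts above the bars. The grey bars rise from 5.41% to 32.3% with length, while the brown bars stand at 0 in every class but 5 to 20 kb.

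Counted along the DNA, the 40 genes with 1000 bp on each side span 1501903 bp and held 2 reproducible Ey peaks and 1 Su(H) peak, or 0.133 and 0.0666 peaks per 100 kb. Over the span of all genes the densities were 0.754 and 0.748 per 100 kb. Reproducible Ey peaks covered 0.3% of the span of the 40 genes and 1.52% of that of all genes, and Su(H) peaks covered 0.0301% and 1.26%. The single-replicate lists differed in the same direction, with 0.333 and 0.266 peaks per 100 kb for Ey-Dam and 0.133 in each replicate for Su(H)-Dam, against 1.13 to 1.17 over all genes. GATC sites, without which no peak can be called, were present at all 40 genes, at a median of 2.71 per kb (1.39 to 4.29) against 3.33 per kb for all genes. The part that site density plays in the peak counts was not tested.

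The Elav-family pair both had peaks. *elav* encodes the RNA-binding protein commonly used as a marker of postmitotic neurons, and *fne* a close relative. *elav* (X, 509235 to 523226, reverse strand) had a reproducible Ey peak of 4116 bp from 521404 to 525519 that covers its outer start site at 523226. The IDR score of this peak was 961, above 6.4% of the reproducible Ey list, whose median was 1000. Of this peak, 2293 bp lie upstream of the gene, 1325 bp in introns and 497 bp in 5′ UTR, and 3 of its 4 transcripts start inside it. In Ey-Dam replicate 1 the peak ran from 522614 to 525519 and scored 5.50, above 66.2% of its list. In Ey-Dam replicate 2 the overlapping peak was shorter, from 524768 to 525519, scored 4.37, above 46.9% of its list, and ended 1542 bp upstream of the gene. The start site itself was therefore under a peak in replicate 1 and in the reproducible list and not in replicate 2.

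Both Su(H)-Dam replicates had a peak at those same 752 bp upstream of *elav*, with scores of 3.02 and 2.52, above 38.5% and 26.6% of their lists, and it was not among the reproducible Su(H) peaks. Further upstream, reproducible peaks of both factors followed at 2440 bp (Ey) and 2506 bp (Su(H)) from the gene and again at 3147 bp. At these places Ey-Dam replicate 1 scored 5.37 and 5.85, above 61.1% and 78.8% of its list, and replicate 2 scored 5.49 and 6.19, above 90.5% and 98.9%. *elav* shares 13792 of its 13992 bp with *arg*, a gene on the other strand from 509435 to 528028, and shares its start with lncRNA:enrr, so these peaks cannot be assigned to *elav* from position. The split of Ey from Su(H) at *elav* thus rests on the 1000 bp limit. Ey-Dam replicate 2 had 1 more peak, from 516957 to 517936, over 142 bp of coding sequence and 835 bp of 3′ UTR. It scored 3.17, above 3.71% of its list, with no counterpart in replicate 1.

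*fne* (X, 12917477 to 12950417) is 32941 bp long and had peaks in all 4 replicate lists and in neither reproducible list. In Ey-Dam replicate 1 and Su(H)-Dam replicate 1 the peak ran from 12925931 to 12927889, and in both second replicates from 12927294 to 12927889. The Ey scores were 4.95 and 4.14, above 41.1% and 38% of their lists, and the Su(H) scores 3.31 and 2.66, above 55.7% and 33.2%. This interval lies 8447 bp downstream of the outer start sites, in an intron of the 4 transcripts that begin there, and before the start of the other 7. A second Ey peak, 276 bp from an inner start, was in replicate 1 alone and scored 3.60, above 0.068% of that list. The nearest reproducible peaks were 178577 bp (Ey) and 115650 bp (Su(H)) away.

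**Figure D2:**
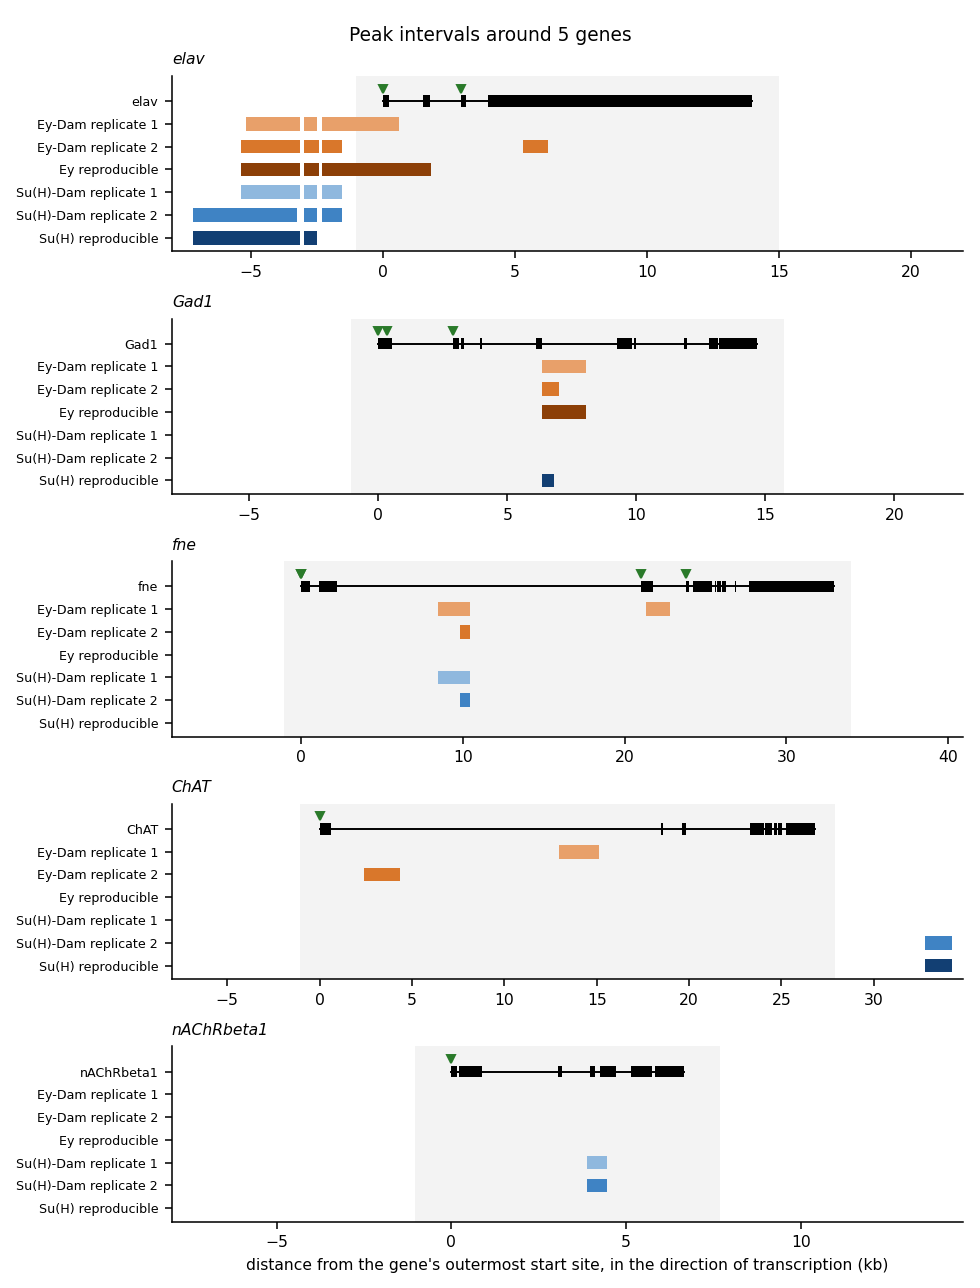
Peak intervals of the 6 lists (coloured bars, 1 row per list) around *elav*, *Gad1*, *fne*, *ChAT* and *nAChRbeta1*, plotted as distance in kb from the outermost start site in the direction of transcription; black boxes are exons, green triangles start sites, and the grey band is the gene with 1000 bp on each side. Only *elav* has a peak over a start site, and the *ChAT* panel shows replicate peaks at different places.

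Among the genes for transmitter synthesis and transport, *Gad1*, the glutamate decarboxylase that makes GABA, was the single gene with a reproducible peak. The gene lies on 3L from 4074077 to 4088744 on the reverse strand. Its reproducible Ey peak, 4080709 to 4082390, is 1682 bp long, lies in an intron of all 4 transcripts, 3453 bp from the nearest start site, and has no other gene within 1000 bp. It scored 4.43 in Ey-Dam replicate 1, above 20.9% of the list, and 5.12 in replicate 2, above 79.8%, where it was called over the shorter 4081742 to 4082390. The replicates thus placed the same peak low and high in their lists.

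The reproducible Su(H) peak of *Gad1*, 4081939 to 4082390, is 452 bp long and lies whole within the Ey peak, of which it takes 26.9%. No Su(H)-Dam peak at FDR 0.01 overlapped it in either replicate, and the nearest such peaks were 67749 and 67596 bp from the gene. The IDR lists were made from peaks called at an FDR under 0.1, so a reproducible peak need not be in the stricter lists. Of the 972 reproducible Su(H) peaks, 94 had no overlapping FDR 0.01 peak in either replicate, as had 49 of the 984 for Ey. The Su(H) motif printed above lies in the reproducible Ey peak, outside the shorter Ey-Dam replicate 2 peak and outside this Su(H) peak.

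*VAChT*, the vesicular acetylcholine transporter, and *ChAT*, the choline acetyltransferase, form a nested locus on 3R that begins at 18705501, and they share their peaks. Ey-Dam replicate 1 had a peak from 18718467 to 18720648 that scored 4.36, above 17.7% of its list. Ey-Dam replicate 2 had one from 18707908 to 18709854 that scored 3.55, above 17.5%. They lie 12966 and 2407 bp from the shared start and do not overlap, so no place in this locus had an Ey peak in both replicates. No Su(H) peak lay within 1000 bp, and the nearest reproducible one was 5954 bp beyond *ChAT*.

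The other 9 of the 12 genes for transmitters had no peak within 1000 bp in any list, against 12.9% of all genes with one. They are *VGlut* and *VGAT*, the vesicular transporters of glutamate and GABA, *Vmat*, that of monoamines, *ple* and *Ddc*, the tyrosine hydroxylase and DOPA decarboxylase of dopamine synthesis, *Tdc2*, the tyrosine decarboxylase of octopamine synthesis, *Trh*, and *SerT* and *DAT*, the serotonin and dopamine transporters. *VGlut* came nearest, with a reproducible Ey peak 3562 bp upstream. *ple* had reproducible peaks of both factors 11951 bp away, on its 3′ side at *SP1173*. The rest were 15256 bp (*Ddc*) to 205802 bp (*VGAT*) from the nearest peak of any list.

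None of the 7 genes for vesicle release and the active zone had a peak within 1000 bp in any of the 6 lists, against 12.9% of all genes with one. *nSyb*, the neuronal synaptobrevin, lay 2943 bp from an Ey-Dam replicate 1 peak that scored 4.18, the shortest distance among the 34 genes with no peak. *brp*, which builds the active zone scaffold, lay 4406 bp from a Su(H)-Dam replicate 2 peak at *CG1888*. *Syt1*, the calcium sensor for release, lay 13427 bp from reproducible peaks of both factors. *unc-13*, which primes vesicles, lay 32831 bp, *Syx1A*, a SNARE of the plasma membrane, 42369 bp, and *Rim*, an active zone organizer, 138791 bp from the nearest peak. *Snap25*, the other plasma membrane SNARE, was the farthest of all at 422334 bp.

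The 9 genes for voltage-gated channels, of median length 53808 bp, likewise had no peak in any list, against 12.9% of all genes with one. The calcium channel gene *cac* and the sodium channel gene *para* lay 21743 and 26995 bp from the nearest peak. The potassium channel genes ranged from *Shal* at 3641 bp, next to a replicate 2 Ey peak that scored 3.62, through *slo* (8279 bp), *Shab* (8915 bp), *eag* (8935 bp), *sei* (9893 bp) and *Shaw* (28184 bp) to *Sh* at 36846 bp. The peak nearest to *eag* was in Ey-Dam replicate 1, scored 4.82 and lay at the neighbour *hiw*. The reproducible Ey peak of *hiw*, 8936 bp from *eag*, is at the same place. In Ey-Dam replicate 2 the peak nearest to *eag* was 204182 bp away.

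Of the 10 receptor genes, *nAChRbeta1* alone had a peak in any list, against 12.9% of all genes with one. It encodes a nicotinic acetylcholine receptor subunit and lies on 3L from 4429349 to 4435993. Both Su(H)-Dam replicates called the same 561 bp, 4433231 to 4433791, with 332 bp of coding sequence and 229 bp of intron. The scores were 2.54 and 2.44, above 13.1% and 22.1% of their lists, and the interval was not among the reproducible Su(H) peaks. The nearest Ey peak lay 20922 bp away. The nicotinic genes *nAChRalpha7* (3972 bp), *nAChRalpha6* (7008 bp), *nAChRalpha5* (58312 bp), *nAChRalpha4* (62113 bp) and *nAChRalpha1* (72920 bp) had none within 1000 bp. The same held for the NMDA receptor genes *Nmdar2* (9262 bp) and *Nmdar1* (30843 bp), for *GluClalpha*, a glutamate-gated chloride channel (24063 bp), and for *ort*, a histamine-gated chloride channel (135622 bp). *nAChRalpha7* was the one of these with reproducible peaks of both factors within 5 kb, 3973 bp away at *kek5*.

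**Figure D3:**
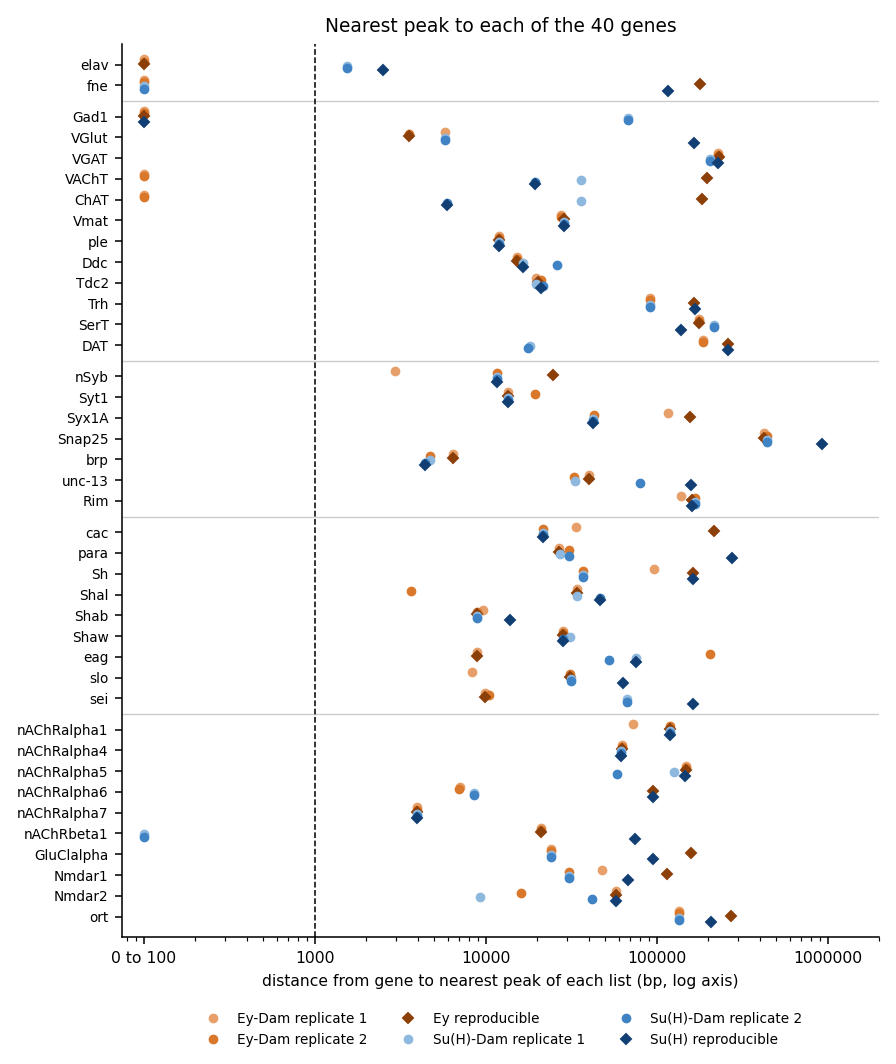
Distance in bp (log axis) from each of the 40 genes to the nearest peak of each of the 6 lists, with genes in rows by role and distances under 100 bp drawn at the left edge; circles are replicate lists, diamonds reproducible lists, orange Ey and blue Su(H), and the dashed line marks 1000 bp. Symbols left of the line belong to *elav*, *fne*, *Gad1*, *VAChT*, *ChAT* and *nAChRbeta1*, and *Snap25* lies farthest right.

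Over the 34 genes with no peak within 1000 bp, the distance to the nearest peak of any list ran from 2943 to 422334 bp with a median of 22903 bp. It was under 5 kb for 5 of them and over 50 kb for 9. Over all 40 genes, the median distance to the nearest reproducible peak was 48.9 kb for Ey and 66 kb for Su(H), against 60.2 kb for all genes in each list. It was thus shorter than that of all genes for Ey and longer for Su(H). Distances run from the ends of a gene, and the median length was 21246 bp for the 40 and 1656 bp for all genes. The part that length plays in these distances was not tested.

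At the level of single replicates, 6 of the 40 genes (15%) had a peak in any of the 6 lists, against 12.9% of all genes. Here *VAChT* and *ChAT* are counted apart though they share their peaks. An Ey peak at FDR 0.01 in each replicate was found near 5 (*elav*, *fne*, *Gad1*, *VAChT* and *ChAT*, 12.5%), against 6.30% of all genes. A Su(H) peak in each was found near 2 (*fne* and *nAChRbeta1*, 5%), against 6.80%. In replicate 2 *elav* counts for Ey only through its peak from 516957 to 517936, and the *VAChT* and *ChAT* peaks differ between replicates. When the peaks of the replicates had also to overlap each other, the Ey count was 2 (*fne* and *Gad1*, 5%) against 6.20%, and the Su(H) count stayed 2 (5%) against 6.74%. *Gad1* was the 1 gene that met both this and the IDR criterion for the same factor, Ey, with all peaks within 1000 bp. The reproducible Ey peak of *elav* also had overlapping peaks in both replicates, but that of replicate 2 lay 1542 bp from the gene.

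Within their lists the peaks near the 40 genes stood above 0.068% to 79.8% of all peaks, and the median peak scored below the median of its list in each of the 4. The 5 Ey-Dam replicate 1 peaks had a median score of 4.43 (3.60 to 5.50) against 5.14 for the list, and the 4 of replicate 2 had 3.84 (3.17 to 5.12) against 4.42. The 2 peaks of each Su(H)-Dam replicate had medians of 2.92 and 2.55 against 3.22 and 2.96. Of these 13 peaks, the *elav* peak and *fne* Su(H) peak of the first replicates and the *Gad1* peak of Ey-Dam replicate 2 stood above their list's median. For scale, Ey scores of replicate 1 exceeded those of replicate 2 by a median of 0.67 (SD 0.77) over the 825 reproducible peaks scored in both, and Su(H) scores by 0.18 (SD 0.366) over 787. At *elav* the difference was 1.13 and at *Gad1* it was -0.69, in opposite directions.

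**Figure D4:**
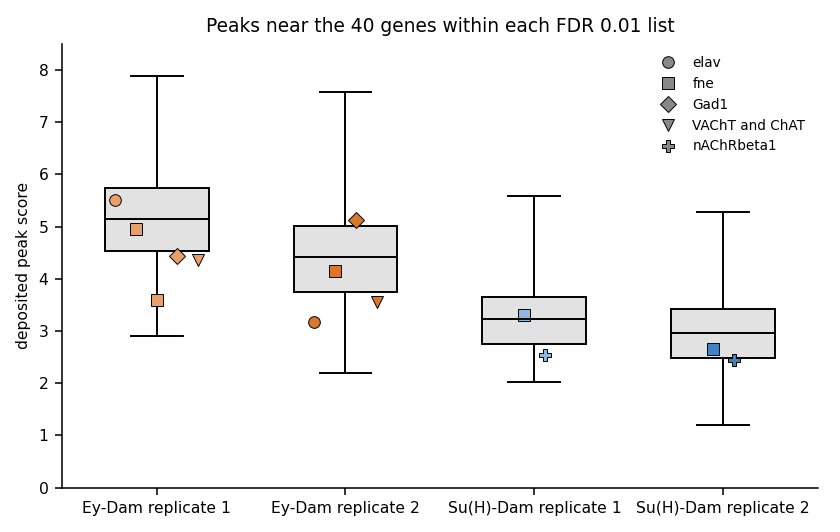
Deposited peak scores in the 4 FDR 0.01 lists: boxes give the quartiles and median of all peaks of a list, whiskers its lowest and highest peak, and symbols the peaks within 1000 bp of the 40 genes (the peaks of *VAChT* and *ChAT* are the same and drawn once). Scores of Ey-Dam and Su(H)-Dam are on separate scales, and 3 of the 13 symbols lie above the median line of their box.

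Other genes of the same functions were listed apart from the 40. Among 23 further channel genes 1 had a reproducible peak (*Teh1*), among 31 further receptor genes 0, among 30 further synaptic genes 3 (*RhoGAP100F*, *hiw* and *Sytbeta*) and among 6 further pan-neuronal genes 1 (*Appl*). Together that is 5 of 90 (5.56%), against 7.67% of all genes. A peak in any of the 6 lists lay near 11 of the 90 (12.2%), against 12.9% of all genes. All 5 with a reproducible peak were among the 42 of the 90 that are 20 kb or longer. That is 11.9% of the 42, against the 27.0% of all genes of that length given above. *Sytbeta*, a synaptotagmin, had both factors, with Ey scores of 5.16 and 5.18 and Su(H) scores of 3.68 and 3.04. *Appl*, the fly relative of the amyloid precursor protein, had a reproducible Su(H) peak that lies between it and *elav*.

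The lists hold no expression values, so the labelled cell type could not be checked, and peaks at marker genes are given only for their place. All 5 NB marker genes (*dpn*, *ase*, *wor*, *mira* and *insc*, of median length 3322 bp) had a reproducible Ey peak and 3 a Su(H) peak. Of all genes, 5.54% had a reproducible Ey peak and 5.46% a Su(H) peak. The Ey scores of replicates 1 and 2 were 6.05 and 5.32 at *dpn*, 5.97 and 5.81 at *wor*, 5.28 and 4.93 at *ase*, 4.46 and 5.10 at *mira* and 5.49 and 4.36 at *insc*. Those of *dpn* and *wor* were above the highest Ey scores near the 40 genes, 5.50 and 5.12, and those of *ase*, *mira* and *insc* were below them. Of 3 glial marker genes, *repo* and *nrv2* had a reproducible Su(H) peak and *moody* had none. Of the neuron markers *elav*, *nSyb* and *brp*, which are among the 40, only *elav* had a reproducible peak, of Ey. These counts are of short lists and say where peaks lie, not which cells were sampled.

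**Figure D5:**
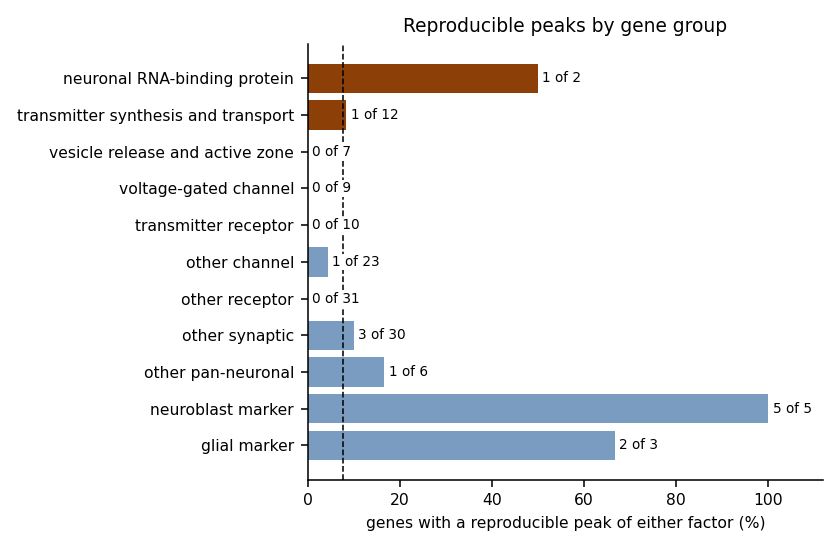
Percentage of genes with a reproducible peak of either factor, for the 5 roles of the 40 genes (brown) and for other gene groups (blue), with counts beside the bars; the dashed line is the 7.67% of all genes. Vesicle release, channels and receptors stand at 0, and the 5 NB markers at 100%.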

How the data were processed

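The authors aligned DamID-seq reads to dm6 with Bowtie2 and passed them through damidseq_pipeline, which bins reads by GATC fragment, scales the libraries and gives log2 ratios of fusion to Dam. The deposited replicate lists give a score for each peak, based on those ratios, at an FDR under 0.01. The deposited reproducible lists give an IDR score. They were made from calls at FDR 0.1 and kept at an IDR threshold of 0.05. Another 3 deposited lists of overlaps between these were not used, and reads per fragment were not analysed here, so depth enters only through the calls. The pairing of control and fusion libraries is not given in the sources used here.

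Peaks were assigned to genes of Ensembl release 115 within 1000 bp, without transposon insertions. All peaks start at a GATC site of Release 6 (dm6). Intervals in the reproducible lists begin 1 base later than in the replicate lists. Python 3.11.15 with numpy 2.4.6 and matplotlib 3.10.9 was used, and the assignment was tested on simulated data. No statistical test was run: with 2 replicates and lists of peaks, counts are set beside those of all genes. The 40 genes and the other lists were chosen with earlier results of these data known. All 40 are named, those with peaks with their values. Of the other lists the genes with reproducible peaks are named, and the marker genes in full. Alternatives changed the distance, the IDR criterion, the strength of peaks, the reference point in the gene, the gene set and the replicates used.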

Additional observations from a re-analysis of the deposited data

How the results depend on the processing

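All alternatives were run. With a distance of 5000 bp the count of the 40 genes was 4 for Ey, 4 for Su(H), 3 for both factors, 5 for either and 4 for Ey peaks that overlap a Su(H) peak, while the share of all genes with either rose to 13.8%. The added genes were *VGlut*, *nAChRalpha7* and *brp*, and *elav* gained Su(H). Within 1000 bp of a start site the counts were 1 for Ey, 0 for Su(H), 0 for both and 1 for either, against 5.29% of all genes for either. With FDR 0.01 peaks that overlap between the replicates in place of IDR they were 3 for Ey, 2 for Su(H) and 4 for either (8.75% of all genes), where *elav* counts because its replicate 1 peak overlaps one of replicate 2 that lies beyond 1000 bp. The count for both stayed 1 there but was *fne* in place of *Gad1*. When a reproducible peak had also to be at FDR 0.01 in each replicate, Su(H) and both fell to 0, which takes *Gad1* from the Su(H) count. The count for either factor stayed 2 there, against 6.31% of all genes. On the list of either replicate alone the counts were 5 to 5 for Ey, 2 to 2 for Su(H) and 6 to 6 for either factor. These 6 are 15% of the 40, above the 10.5% of all genes on such lists, where the 5% with a reproducible peak is below 7.67%. Among the 6, *VAChT* and *ChAT* count through the same peaks, and neither comparison takes gene length into account. Su(H) was then at *fne* and *nAChRbeta1* and not at *Gad1*. The share of genes with either was 12.6% among genes at least as long as the shortest of the 40. A distance of 0 bp changed no count of the 40 genes, while the share of all genes with either factor was 5.69%. The number of the 40 without any peak was 34 at 0 bp and 29 at 5000 bp. Shares of all genes under the alternatives were taken for either factor only. Changes in the other counts therefore cannot be set against those of all genes. No paired analysis was possible because the results are counts of peaks that come from no test. Resolution is limited by GATC fragments and precision by 2 replicates.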
